A study of Rattus norvegicus with 9 samples.

Results

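Car3, Washc3, Eprs1, Spock2, Dynlt3 and Zfp317 are 6 genes whose array signal differed widely, or sat at separate levels, among 9 rats of an outbred stock. They were chosen by the spread of these same levels over the animals, so the spread is described and not tested. Each gene was measured by 1 probe, and these 6 probes are a small part of the 22517 on the array and of the 12370 that were tested. The animals were Sprague-Dawley rats, an outbred laboratory strain in which individuals differ genetically. All 9 had received 145 cGy from a caesium source on gestation day 17, and the cortex was taken at 60 days of age. The labels divide them into 4 males and 5 females, with 1 array per animal and no pooling stated. Every animal was irradiated, the unirradiated animals of the design were not analysed here, and no value below measures an effect of radiation. Each title ends in a running number and a letter; the number takes 3 values, and the meaning of neither is stated. The first title number belongs to males 1 and 2 and female 1, the second to males 3 and 4 and females 2 and 3, and the third to females 4 and 5.

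In an outbred stock each animal carries its own combination of alleles, and the level of a transcript can differ between individuals of the same sex, age and treatment. A hybridisation probe reads the amount of a short stretch of RNA that matches it, so its signal carries both the amount of a transcript and how well the stretch matches. The 6 genes serve unrelated functions. Car3 encodes carbonic anhydrase 3, an enzyme that interconverts carbon dioxide and bicarbonate and is best known from muscle, fat and liver. Washc3 is a subunit of the WASH complex, which builds branched actin on endosomes and helps sort receptors back to the cell surface. Eprs1 is the glutamyl-prolyl-tRNA synthetase, which loads tRNAs with glutamate and proline for translation. Spock2 encodes testican-2, a secreted proteoglycan of the brain's extracellular matrix. Dynlt3 is a light chain of cytoplasmic dynein, the motor that carries cargo along microtubules toward the cell body. Zfp317 is a zinc finger protein of the KRAB class, whose members bind DNA and repress transcription.

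Levels are given as log2 intensity after background correction and quantile normalisation, and a step of 1 on this scale is a doubling. A background bound was set on each array from probes absent in the authors' value table, and it lay between intensities of 46.6 and 54.1. The 6 glutamatergic markers with a named probe, among them Slc17a7, Camk2a and Neurod6, passed the bound in every one of the 9 animals. The 9 striatum markers and the 9 oligodendrocyte markers with a named probe did the same, beside 9995 of 22517 probes. Detection of the glutamatergic markers therefore does not single out cortex. The first principal component, with 33.5% of the variance, set female 1, male 2 and female 3 apart at scores of 16.1 to 19.0, against -13.1 to -4.53 in the others. In cortex taken as a whole, fewer cells of a type and less RNA per cell cannot be told apart. Nothing in the labels says that the animals came from separate litters, so a p-value measures only the spread between these 9 animals.

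The SD over the 9 animals was 1.48 for Spock2, 1.43 for Washc3, 1.42 for Car3, 0.83 for Dynlt3, 0.73 for Zfp317 and 0.49 for Eprs1, against a median of 0.16 over all tested probes. In order of SD the genes stood at ranks 6, 7, 8, 22, 36 and 131 of 12370. Among the 5 probes ahead of Spock2, those with a name were Rps9, Ttr and Rpl30, with SDs of 2.39, 2.09 and 1.92. A second measure was the largest gap between 2 animals that follow each other in order of level. It reached 4.21 in Spock2, the widest of all tested probes, 2.52 in Washc3 and 2.10 in Car3, and 0.86, 0.73 and 0.70 in Dynlt3, Zfp317 and Eprs1. A gap of at least 1 was found in 3 of the 6 genes and in 38 of 12370 probes, or 0.307%, and because such gaps chose the genes nothing is read from that difference.

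**Figure D1:**
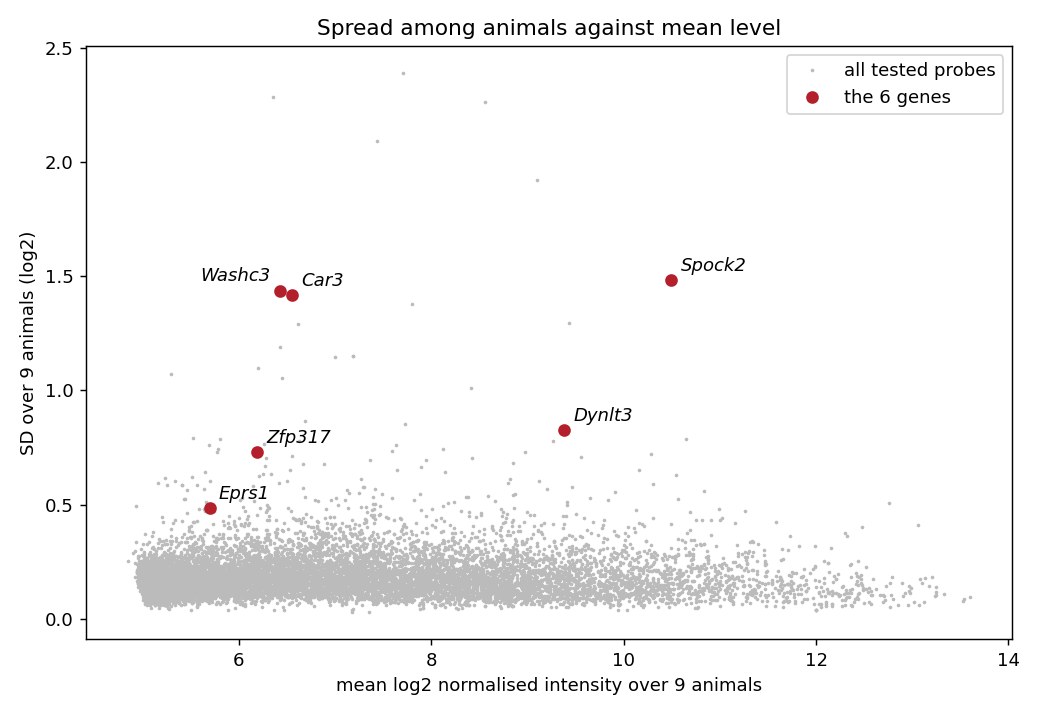
SD over the 9 animals (log2, vertical axis) against mean log2 normalised intensity (horizontal axis) for each of 12370 tested probes (grey) and the 6 genes (red). Spock2, Washc3 and Car3 lie between 1.42 and 1.48, far above the median SD of 0.16, and Eprs1 at 0.49 lies closest to the other probes.

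Spock2 was high in 8 animals and low in 1. Its probe (ILMN_1369983, NM_001108533, chromosome 20) read 10.98, 11.07, 10.99 and 10.76 in males 1 to 4. In females 1 to 5 it read 11.01, 6.55, 10.98, 11.12 and 11.02. Female 2 alone stood apart, and the other 8 animals spanned only 0.36. The deposited intensity was 101 in that animal, whereas the others ranged from 1682 to 2521. The next animal in order, male 4, was 18.5-fold higher than female 2. At 101 the probe was still above that array's bound of 46.7. Marker lists of cell types gave the following in female 2. Its score, the mean log2 deviation of a list's members from their means over the animals, was 0.09 for glutamatergic neurons, where the animals ranged from -0.23 to 0.13. For GABAergic neurons it was -0.08, in a range from -0.10 to 0.09. The oligodendrocyte score of female 2, at 0.52, was the highest of the 9 animals. Its fat cell and endothelial scores, at -0.22 and -0.09, were the lowest. The choroid plexus score of female 2 was -0.51, close to the lowest, -0.52 in male 1. The part of these scores in the low Spock2 value was not tested.

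Washc3 sat at separate levels with a wide empty interval between them. Its probe (ILMN_1361976, NM_001106776, chromosome 7) read 7.63, 7.61, 5.001 and 7.79 in males 1 to 4. The females read 7.52, 4.88, 4.90, 4.88 and 7.62 in order of their numbers. The 5 animals above the gap lay within 7.52 to 7.79, and the 4 below it, male 3 and females 2, 3 and 4, within 4.88 to 5.001. Intensities were 206 to 242 in the former and 43.2 to 46.1 in the latter. In those 4 animals the probe did not exceed the background bound, so the low values are only upper limits on the level. All 3 animals of the first title number were high, and each of the other title numbers held animals at both levels. The GABAergic neuron score was from 0.02 to 0.09 in the 5 animals above the gap and from -0.10 to 0.01 in the other 4. The microglia score was from -0.18 to 0.03 in those 5 and from 0.04 to 0.19 in the other 4, and the astrocyte score from -0.11 to -0.03 and from -0.04 to 0.16. The part of these scores in the result was not tested.

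Car3 was likewise either high or near background. The probe (ILMN_1368331, NM_019292, chromosome 2) gave 7.87, 5.49, 8.18 and 5.19 in males 1 to 4. It gave 7.89, 5.29, 8.19, 5.77 and 5.13 in females 1 to 5. Male 1, male 3, female 1 and female 3 were high, between 7.87 and 8.19, and the remaining 5 lay between 5.13 and 5.77. In intensity these were 266 to 307 and 49.2 to 68.8. In every animal the probe was above the bound, which was 46.6 to 51.5 for the 5 low ones. Each sex had animals at either level, as did the first and the second title number, while both animals of the third were low. Car3 is abundant in fat and muscle, and markers of those tissues gave the following. Of 5 fat cell markers with a named probe, 1, Cfd, exceeded the bound on all arrays, and Adipoq and Fabp4 exceeded it on 1 and 2 arrays. The fat cell score, from 2 tested markers, was -0.02 in male 1, -0.07 in male 3, -0.07 in female 1 and 0.22 in female 3, and the highest value, 0.25, was that of male 4, where Car3 was low. Of 8 muscle markers, 4 were above the bound throughout, and Mb and Actn3 were on 0 arrays. The muscle score ranged from -0.11 in male 3, where Car3 was high, to 0.09 in male 2, where it was low. The astrocyte score was highest in female 3 at 0.16 and male 3 at 0.09, the animals with the highest Car3. It was -0.03 in male 1 and female 1, which were also high for Car3. Of the animals low for Car3, female 4 scored 0.05, while males 2 and 4 and females 2 and 5 scored between -0.11 and -0.04. The astrocyte score stood at r = 0.65 and a Spearman rho of 0.92 with Car3, and the endothelial score at 0.74 and 0.52. The 5 low Car3 values lay near background, which limits what their ranks mean. Astrocyte markers differed in direction. Slc1a3 was lowest in male 1 (11.30) and highest in male 2 (12.18), whereas Gfap was highest in male 3 (11.43) and lowest in male 4 (10.935). The endothelial score, from 3 tested markers, was 0.11 in male 3, 0.09 in female 1, 0.04 in female 3 and -0.03 in male 1, and from -0.09 to -0.01 in the 5 low animals. The part of these scores was not tested.

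**Figure D2:**
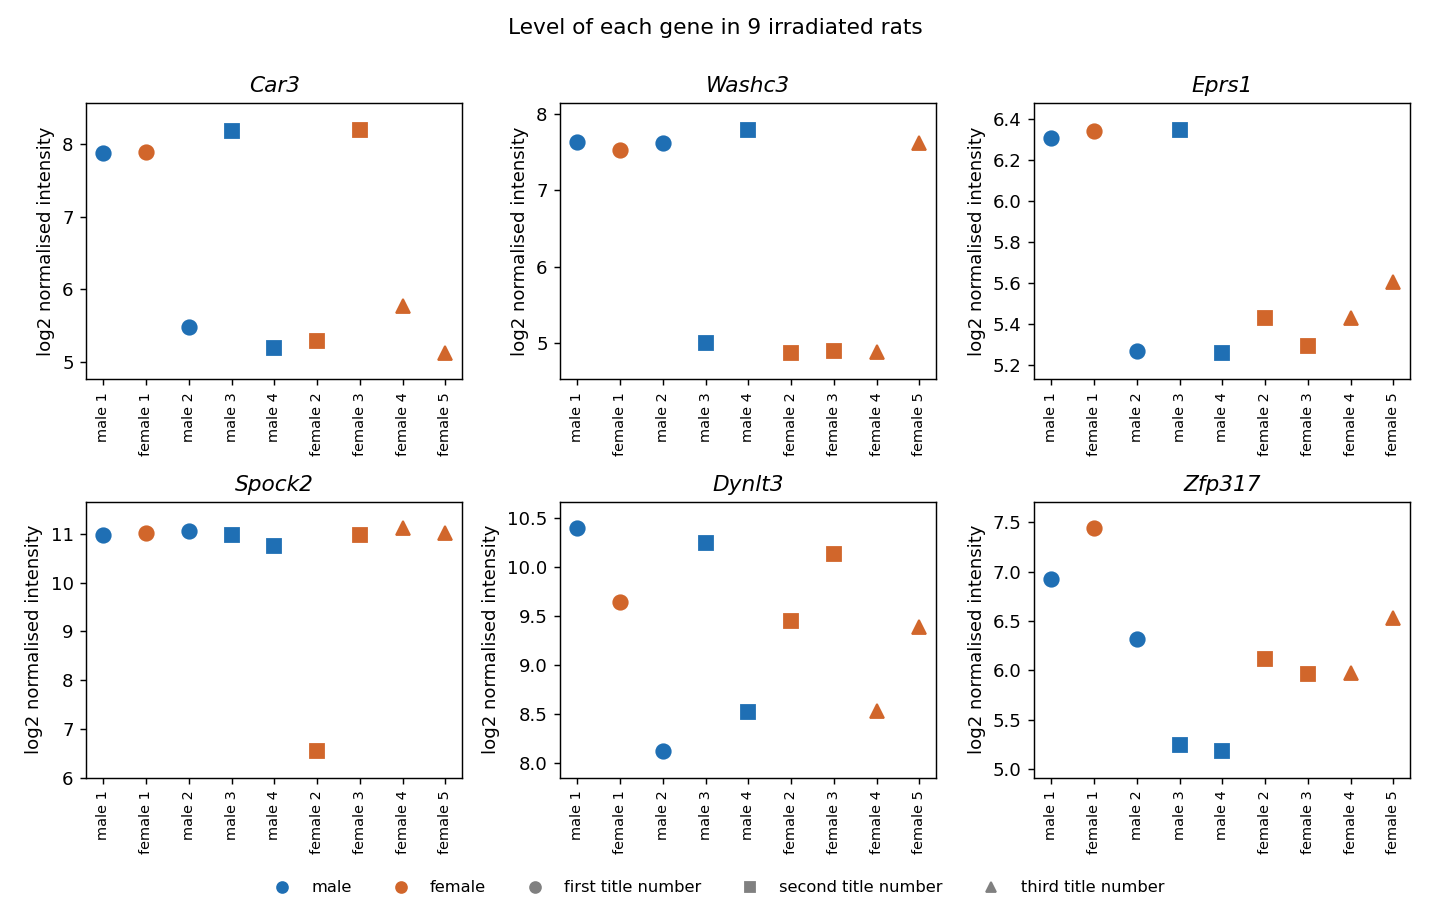
Log2 normalised intensity (vertical axis) of each gene in the 9 animals (horizontal axis), 1 point per animal, coloured by sex, with the symbol giving the title number. Each panel has its own vertical scale: Spock2 is low in female 2 only, Washc3 and Car3 fall into a high and a low range, and Dynlt3 and Zfp317 are graded.

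Eprs1 had a smaller spread at a low signal. Its probe (ILMN_2038894, NM_001024238, chromosome 13) read 6.31, 5.27, 6.35 and 5.26 in males 1 to 4. The females from 1 to 5 read 6.34, 5.43, 5.29, 5.43 and 5.61. Male 1, male 3 and female 1 were the highest and lay within 6.31 to 6.35, while the other 6 lay from 5.26 to 5.61. The intensities were 92.8 to 115 in those 3 animals and 50.7 to 65.5 in the rest, against bounds of 46.6 to 54.1. The 3 high animals were all among the 4 with high Car3, and female 3, high for Car3, was low for Eprs1 at 5.29. Over the 9 animals the muscle score, which spanned only -0.11 to 0.09, stood at r = -0.80 and a Spearman rho of -0.93 with Eprs1. The striatum score stood at 0.63 and 0.67, and the endothelial score at 0.61 and 0.43. They were picked as the largest coefficients among all the cell lists. The other 6 Eprs1 values lay near background, which limits what their ranks mean. The part of these scores was not tested.

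Dynlt3, which is X-linked in the RefSeq annotation, was graded and measured well above background in every animal. Its probe (ILMN_1651019, NM_001013228) read 10.39, 8.13, 10.25 and 8.53 in males 1 to 4. In females 1 to 5 it was at 9.65, 9.45, 10.13, 8.53 and 9.39. Males held the 2 highest values, male 2 the lowest, and male 4 and female 4 were level next to it. The SD was 1.16 in males and 0.58 in females. Intensities ran from 283 in male 2 to 1553 in male 1, a 4.82-fold span after normalisation. Male 1, male 3, female 3 and female 1 had the highest levels, in that order, and these are the same 4 animals that were high for Car3. The separation was narrow for Dynlt3, with female 1 at 9.65 and female 2 next at 9.45. The striatum score, for the structure below the cortex, was lowest in the 3 animals with the lowest Dynlt3, at -0.51 in male 2, -0.47 in male 4 and -0.45 in female 4. It was from 0.07 to 0.62 in the 4 highest, and 0.51 in female 5 and -0.17 in female 2. Over the 9 animals it stood at r = 0.71 and a Spearman rho of 0.62 with Dynlt3, and the muscle score at -0.62 and -0.73. The part of these scores was not tested.

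Zfp317 was graded too. The probe (ILMN_1351340, NM_001134634, chromosome 8) read 6.92, 6.32, 5.24 and 5.18 in males 1 to 4. It read 7.44, 6.12, 5.97, 5.98 and 6.53 in females 1 to 5. The widest step lay between male 3, next to lowest, and female 3 just above it, at 0.73. Intensities ran from 48.9 in male 4 to 230 in female 1, so the lowest animals were close to their bounds. The animals of the first title number, at 6.32 to 7.44, included the 2 highest. Their arrays also had the highest median intensities before normalisation, at 53.6 to 57.3 against 47.9 to 50.5 in the other 6. Over the 9 animals the array's median intensity stood at r = 0.86 and a Spearman rho of 0.88 with Zfp317. These were larger in size than the coefficients of any cell score. The microglia score stood at -0.74 and -0.73, and the glutamatergic score at 0.55 and 0.72. The part of array brightness and of these scores in the Zfp317 order was not tested.

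**Figure D3:**
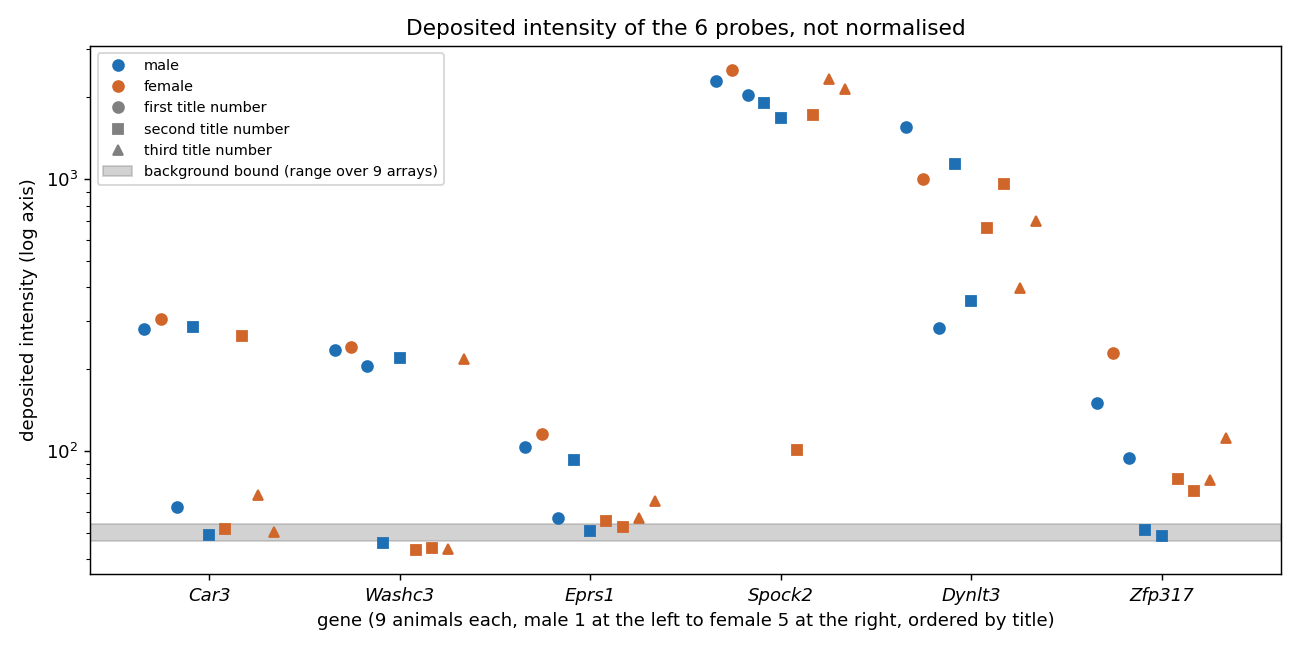
Deposited intensity, before any normalisation and on a log axis, of the 6 probes in each of the 9 animals (points coloured by sex, symbols by title number, same key as for the levels). The grey band is the range of the background bound over the arrays, 46.6 to 54.1. The low animals for Car3, Washc3 and Eprs1 lie in or just above or below it. Males 3 and 4 lie in it for Zfp317, at 51.4 and 48.9. The low Spock2 value of 101 and all Dynlt3 values lie above it.

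None of the 6 genes passed the test between males and females. In limma's moderated test over all 12370 probes, 0% passed an adjusted p of 0.05, 1.94% (240 probes) had an unadjusted p under 0.05, and the 6 genes were not among either. The mean Washc3 level was 7.01 ± 1.34 (SD, n = 4) for males and 5.96 ± 1.47 (SD, n = 5) for females. Its difference, male minus female, was 1.05 ± 0.72 (SE), with a limma adjusted p of 1.00 and an interval from -0.51 to 2.60. As 4 of the 9 values were not above the bound, the size of this difference is not exact. Spock2 read 10.95 ± 0.13 in males and 10.13 ± 2.01 in females (SD), a difference of 0.81 ± 0.77 (SE). That difference rested on female 2, since without this animal it was -0.08. Zfp317 differed by -0.49 ± 0.37 (SE), from 5.92 ± 0.85 in males and 6.41 ± 0.62 in females (SD). The remaining differences were 0.23 ± 0.76 for Car3, 0.18 ± 0.27 for Eprs1 and -0.11 ± 0.45 for Dynlt3 (SE), and each changed sign when some single animal was left out. For Car3 this was male 1 (-0.17), male 3 (-0.27), female 2 (-0.06) or female 5 (-0.10). For Eprs1 it was male 3, at -0.01, and for Dynlt3 it was male 2 (0.29), male 4 (0.16) or female 3 (0.07). Single animals also moved the size by over 1.5 times, with Washc3 at 1.72 without male 3, and Zfp317 at -0.83 without male 1, -0.23 without female 1, -0.27 without male 3 and -0.25 without male 4. Exact permutation over all ways to place 4 males among the 9 animals gave a two-sided p from 0.222 for Washc3 to 0.905 for Spock2. The intervals of the difference reached from -1.42 to 1.89 for Car3 and from -0.85 to 2.48 for Spock2. For these genes and Washc3, a difference of 1 on the log2 scale would not be told from 0 with these animals. The intervals were narrower for Eprs1 (-0.40 to 0.75), Zfp317 (-1.30 to 0.32) and Dynlt3 (-1.08 to 0.87). Those of Zfp317 and Dynlt3 still took in a level higher by 1 in females, and that of Eprs1 did not.

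The first title number held 2 males and 1 female, and the second 2 males and 2 females. Within these, the values were as follows. Washc3 was higher in males by 0.10 in the first and 1.504 in the second. Zfp317 stood at -0.82 and -0.83 (male minus female), and Dynlt3 at -0.39 and -0.40. Car3, at -1.21 and -0.05, Eprs1, at -0.55 and 0.44, and Spock2, at 0.02 and 2.11, were less even. With so few animals nothing is read from how even a pair was. The 2 males behind the first Dynlt3 value read 10.39 and 8.13, the highest and the lowest of all animals. Means by title number are description only, since the same spread chose the genes. For Washc3 they were 7.59, 5.64 and 6.25 in order of the numbers, and for Zfp317 6.89, 5.63 and 6.26. For Car3 they were 7.08, 6.72 and 5.45. Over all probes limma's F test between title numbers, with sex in the fit, called 0% at an adjusted p of 0.05 and gave an unadjusted p under 0.05 for 9.23% (1142 probes).

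Neighbouring genes on the chromosomes of the 6 were also measured. For each gene the 5 nearest protein-coding genes with a tested probe on either side were taken from the order in the RefSeq assembly GRCr8, a choice made after the levels were seen. They lay 1 to 30 genes away for Car3, 1 to 18 for Washc3, 1 to 12 for Eprs1, 2 to 13 for Spock2, 3 to 19 for Dynlt3 and 18 to 44 for Zfp317. Among these 60 neighbours, 0 had a gap of at least 1 between consecutive animals and the largest gap was 0.43. Over all tested probes 0.307% had such a gap, so nothing particular to the neighbours is read from this count. Next to Car3 lies Car2, the carbonic anhydrase of oligodendrocytes, which spanned 0.86 over the animals against 3.06 for Car3. Next to Washc3 lies Nup37, a protein of the nuclear pore, which spanned 0.38 against 2.91. Bpnt1, a nucleotide phosphatase beside Eprs1, spanned 0.35, and Psap, the precursor of the lysosomal saposins, near Spock2, spanned 0.61. For Dynlt3 the neighbours' spans ran from 0.21 to 1.04, the widest being that of the cold-inducible RNA-binding protein Rbm3, against 2.27 for Dynlt3. For Zfp317 they ran from 0.27 to 0.84, against 2.26. Pearson's r over the 9 animals between a gene and its 10 neighbours ran from -0.23 to 0.56 for Car3, from -0.60 to 0.62 for Washc3 and from -0.24 to 0.69 for Eprs1. It ran from -0.67 to 0.53 for Spock2, from -0.74 to 0.57 for Dynlt3 and from -0.39 to 0.75 for Zfp317. Among the adjacent genes, Car2 stood at 0.04 with Car3 and Nup37 at 0.62 with Washc3. Bpnt1 and Slc30a10, on either side of Eprs1, stood at 0.02 and -0.24 with it.

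**Figure D4:**
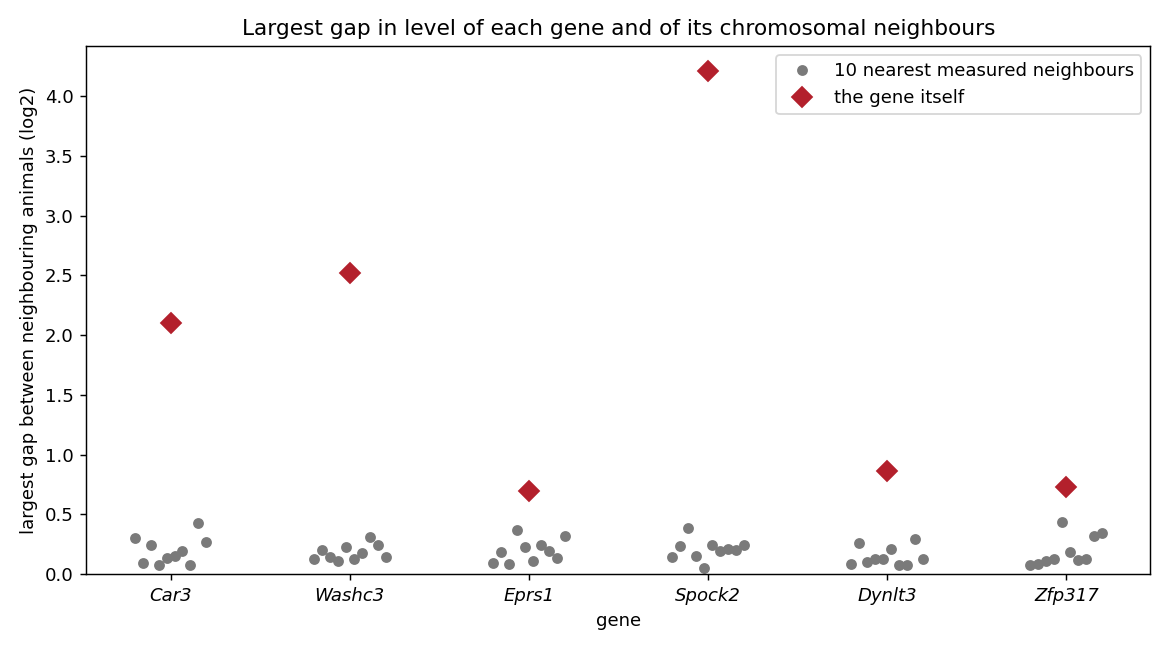
Largest gap in log2 level between 2 animals consecutive in order (vertical axis) for each of the 6 genes (red diamonds) and for the 10 nearest measured genes on the same chromosome (grey circles). All neighbours lie at or below 0.43, and the 6 genes, which were chosen by such spread, range from 0.70 to 4.21.

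Relatives of the 6 genes and partners in their complexes are described by their SDs. The 6 genes were chosen for a large spread, so nothing is read from a smaller SD among relatives. Of the genes on these lists, 0 were called higher in males and 0 higher in females in limma, beside 0% of all probes. The 6 other carbonic anhydrases tested had SDs of up to 0.27, the widest being Car2 at 0.27 and the membrane-bound Car12 at 0.24. Besides Washc3, 3 members of the WASH list were tested, among them the actin-capping subunit Capzb (SD 0.22) and Washc1, which activates actin branching (0.15). The retromer and its partners, which act with WASH on endosomes, had a median SD of 0.15 over 18 genes, with Commd6 (0.36) and the sorting nexin Snx2 (0.24) at the top. The 17 other genes of the cytosolic tRNA synthetases and their scaffold had a median SD of 0.12 and a maximum of 0.25 in Eef1e1, a scaffold protein, followed by the tryptophan enzyme Wars1 at 0.22. The mitochondrial synthetases had a median of 0.14 over 9 genes, with Cars2 at 0.24 and Vars2 at 0.18. These medians stand beside 0.16 over all tested probes, and the members' sex differences had medians near 0, from -0.05 for mitochondrial synthetases to 0.04 for carbonic anhydrases, beside 0.00 over all probes.

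Among the relatives of Spock2, the matrix glycoprotein Sparc had an SD of 0.42 and testican-1, Spock1, of 0.19, and of 5 tested 3 were higher in males and 2 in females without passing the test. In the brain matrix list the median SD was 0.17 over 10 genes. Hapln2, a link protein of the nodes of Ranvier made by oligodendrocytes, had an SD of 0.58 and 1 gap of 1.05, with female 4 at 8.05 and the others from 9.10 to 9.90. Female 4 also had the lowest oligodendrocyte score of all animals, -0.91. Tnr, tenascin-R of the nets around neurons, had an SD of 0.30.

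In the dynein pathway, the light chain genes Dynlt2b and Dynlrb2 followed Dynlt3 with SDs of 0.39 and 0.27, and the median of the 12 others was 0.20. Pafah1b1, also known as Lis1, encodes a dynein regulator whose loss causes lissencephaly in humans, and it was the most variable of 14 dynactin and adaptor genes at an SD of 0.85, rank 21 of all probes. Its levels were 8.04, 6.48, 8.06 and 6.18 in males 1 to 4 and 8.60, 7.48, 8.40, 8.03 and 8.27 in females 1 to 5. Males 2 and 4 were thus the lowest for Pafah1b1, as they were for Dynlt3, whereas female 4, at 8.53 close to male 4 for Dynlt3, was at 8.03. The sex difference of Pafah1b1 was -0.97 ± 0.38 (SE), with a limma adjusted p of 1.00. The next adaptor in order was Bicd2 at an SD of 0.27. Among 113 other genes with a Zfp symbol the median SD was 0.17, and Zfp189 and Zfp575 were the most variable at 0.56 and 0.40. Zfp189 had male 3 at 5.75 and the others from 6.94 to 7.58. Of the proteins through which KRAB zinc fingers silence genes, 5 were tested, with the DNA methyltransferase Dnmt3a at an SD of 0.48 and the heterochromatin protein Cbx3 at 0.27.

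Genes with the most similar levels were ranked by Pearson's r over the 9 animals, as a description, among the named tested probes with an SD of at least 0.25. With 9 points, shared arrays and 1281 probes compared, high coefficients can arise from the number of comparisons alone, and r was at least 0.9 for 1, 0, 0, 1, 0 and 1 probes for Car3, Washc3, Eprs1, Spock2, Dynlt3 and Zfp317. For Car3 the nearest were Commd6 (r = 0.91), a member of a complex that recycles endosomal receptors, Omd (0.89), a matrix proteoglycan known from bone, and Mmp14 (0.82), a membrane-bound matrix protease. Commd6 read 5.69 in male 1, 5.81 in male 3, 5.98 in female 1 and 5.89 in female 3, and from 4.95 to 5.33 in the other 5. It was above the bound on 8 arrays, and the same 4 animals were thus the highest for Commd6, Car3 and Dynlt3. Commd6 was also first for Dynlt3 (0.83), followed by the Rac regulator Chn2 (0.82) and by Car3 itself (0.79). For Eprs1 the nearest were the G protein subunit Gnai1 (0.84), Mmp14 (0.82) and Fgf12 (0.82), a regulator of sodium channels.

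For Washc3 the nearest were the transcription factor Tcf4 (r = 0.87), the muscle actin regulator Abra (0.87) and the ribosomal protein gene Rpl30 (0.81). Rpl30 itself sat at separate levels, at 6.58 in male 3, 6.32 in female 2 and 6.79 in female 4, and from 9.94 to 10.83 in the other 6. The animals low for Rpl30 were low for Washc3 too, and female 3 was low for Washc3 but not for Rpl30, at 10.10. For Spock2 the nearest were Tusc3 (0.93), which takes part in protein glycosylation, the kinase Riok1 (0.84) and the inflammatory caspase Casp1 (0.82). Tusc3 read 10.47 in female 2 and from 11.23 to 11.68 in the other 8, a far smaller step than that of Spock2. Over these animals Spearman's coefficient with Spock2 was 0.45 for Tusc3 and 0.10 for Casp1, so the likeness lay in the single low animal. For Zfp317 the nearest were the aryl hydrocarbon receptor Ahr (0.92), the scaffold protein Mpp2 (0.89) and the RNA-binding protein Celf2 (0.89).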

How the data were processed

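RNA from the cortex of each animal was labelled and hybridised to an Illumina bead array. The deposited per-array files hold 1 linear intensity per probe, and per the file headers no detection p-value. The authors' deposited table holds log2 values for 15912 of 22517 probes. Each of its columns keeps the rank order of that array's intensities and all share a median, as quantile normalisation gives, and the reference distribution stays unknown. The software is not given in the sources used here. Intensities were corrected with limma 3.58.1 (normexp, offset 16), then quantile normalised and log2 transformed. The background bound was the 99th percentile of the 6605 probes outside the authors' table, and probes above it on at least 4 arrays were tested. The sexes were compared in limma with lmFit and eBayes and Benjamini-Hochberg adjustment. The fit was also run on simulated, normally distributed values. Those differ from levels that sit apart or near background, so nothing about the 6 genes is read from that run. The platform annotation gave a symbol to 10687 probes, of which 10662 matched RefSeq (GRCr8) by gene identifier, and 0 symbols changed. It names 1 probe for each of the 6 genes. The files name no genome build, so no coordinates are given. The 6 genes, the lists and the tests were chosen with earlier results of these data known. Besides the 6, named genes were the 3 most alike per gene and the 2 of each list with the largest SD, and list markers or neighbours were named by hand after their values were seen. Of the cell lists, those for choroid plexus, meninges, blood, endothelium and microglia had scores spanning -0.52 to 1.47, -0.70 to 0.29, -0.41 to 0.38, -0.09 to 0.11 and -0.18 to 0.19. Unmapped columns numbered 0. Alternatives are given in the closing section, and the number of arrays limits the precision.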

Additional observations from a re-analysis of the deposited data

Results flagged for a closer look

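In each sex, the highest and lowest animals for each gene were set against the rest by Dixon's criterion, the gap to the nearest animal over the whole range of the group. Among males, the Washc3 level of male 3, 5.001, lay below the other 3 with a gap of 0.937 of the range, against a critical value of 0.829 for 4 animals. Among females, the Spock2 level of female 2, 6.55, lay below the other 4 with a gap of 0.970 of the range, against 0.710 for 5 animals. Washc3 and Spock2 had been chosen for such gaps, so these results are a description and nothing is read from how many there were.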

How the results depend on the processing

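The span of each gene over the animals moved by less than its SD under an offset of 50, without background correction, with median scaling, in the authors' log2 table and without the 3 arrays apart, but the span of Eprs1 moved by over 1.5 times. With the offset of 50 and without background correction, Eprs1 fell from 1.09 to 0.67 and 0.69, Washc3 was at 2.01 and 2.05, and Zfp317 was at 1.56 and 1.59. Without single animals it ran from 2.999 to 3.06 for Car3, 2.75 to 2.91 for Washc3, 1.08 to 1.09 for Eprs1, 0.36 (without female 2) to 4.57 for Spock2, 1.87 to 2.27 for Dynlt3 and 1.74 to 2.26 for Zfp317. No gene of the 6 passed the sex test under any alternative run. Signs of the difference turned for Car3 with title number as a fixed block (-0.51) and for Dynlt3 with array weights (0.24) or without the 3 arrays apart (0.60), and the cause was not tested. Other differences kept their sign and moved by over 1.5 times. Car3, at 0.23, stood at 0.997 with array weights and at 1.69 without the 3 arrays apart (limma unadjusted p 0.0317, adjusted 1.00). Eprs1, at 0.18, stood at 0.36 and 0.48 there and at 0.04 with the fixed block. With that block Zfp317 stood at -0.83 (unadjusted p 0.000412, adjusted 0.728), Spock2 at 1.27 and Dynlt3 at -0.40, and Spock2 was at 1.35 without the 3 arrays apart. With the offset of 50 and without background correction Zfp317 was at -0.31 and -0.32. Without single animals the differences ran from -0.27 to 0.73 for Car3, 0.78 to 1.72 for Washc3, -0.0080 to 0.36 for Eprs1, -0.082 to 1.06 for Spock2, -0.46 to 0.29 for Dynlt3 and -0.83 to -0.23 for Zfp317. Over all probes, limma called 0 to 2 between the sexes without single animals, 2 without male 1 and 1 without male 4. Between title numbers it called 0 to 3 without single animals (3 without female 2 or female 5, 1 without male 4), 1 with no filter, 35 with array weights and 2 without the 3 arrays apart. No paired analysis was possible because the labels pair no single animals across the sexes, and the title number, which several animals share, was fitted as a block instead. Low values of Car3, Eprs1, Washc3 and Zfp317 lie at or just above or below background, which limits what their spans measure.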
